A study of Mus musculus with 25 samples.

Results

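The T cell receptor complex and its coreceptors were followed through RNA from 25 mouse melanomas. The 10 genes were taken by symbol from a table of estimated counts for 55450 genes: the CD3 chains Cd3e, Cd3d, Cd3g and Cd247, the receptor constant genes Trac, Trbc1 and Trbc2, and the coreceptors Cd4, Cd8a and Cd8b1. All 10 were found, each on 1 row, and all 10 passed the filter on low counts. The tumours were grown in C57BL/6 mice from B2905, also called M4, a single melanoma line, and treatment began at an average size of 75 mm3. Of 40 mice implanted, 30 were dosed with anti-CTLA-4, which blocks an inhibitory receptor of T cells, and 5 with an isotype antibody, IgG2b, as control. Both antibodies were given at 10 mg/kg, 2 times a week for 2 weeks. The 20 anti-CTLA-4 tumours sequenced fell into 8 responders, which shrank, 6 stable tumours, which kept their size, and 6 non-responders, which went on growing, as judged 10 to 11 days after the last dose. The 5 IgG2b tumours are called controls, and the 5 untreated mice are not part of these values. Each tumour has its own number in the labels, but separate mice are not stated, so p-values measure the spread between these tumours. No change of genotype is named for any group, nor the age or sex of the mice.

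T cells recognise antigen through a clonotypic receptor, in most cells a pair of alpha and beta chains, each ending in a constant region. The receptor has no signalling tail of its own and is carried to the surface and read out by the CD3 chains. CD4 and CD8 are coreceptors: CD4 binds MHC class II and marks helper and regulatory T cells, and CD8 binds MHC class I and marks cytotoxic T cells. CTLA-4 competes with the costimulatory receptor CD28 for its ligands, and blocking it is known to release T cells in tumours.

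The genes were placed on mouse build GRCm38. Cd3e (chromosome 9, 44998740 to 45009627, minus strand), Cd3d (44981786 to 44987339, plus strand) and Cd3g (44969572 to 44980431, minus strand) are neighbours. Cd247, which encodes CD3 zeta, lies on chromosome 1 (165788681 to 165877277, plus strand). Trac lies on chromosome 14 (54220521 to 54224206, plus strand), and Trbc1 (41538218 to 41539881) and Trbc2 (41546730 to 41548352) on the plus strand of chromosome 6. Cd8b1 (71322788 to 71337494) and Cd8a (71373427 to 71379173) are neighbours on the plus strand of the same chromosome, and Cd4 (124864692 to 124888221) lies on its minus strand. Trbc1 and Trbc2 were 86.3% identical over 677 aligned transcript bases, so the division of reads between them is uncertain. Cd3e shares 135 exonic bases with the antisense gene Gm48719, and Cd247 shares 3007 with Pou2f1 on the opposite strand and 206 with Gm16565 on its own. The library kit marks strand, but for counting no strand setting is given in the sources used here.

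The promoters of 4 members that rose together against controls are printed here, since motifs in them can be set beside those levels. RefSeq promoter windows of 300 bases around the start (GRCm38.p6, strand of the gene) were held for 5 of the 10 members, Cd247 being the fifth. Cd3e is at chr9:45009562-45009861, Cd3d at chr9:44981536-44981835, Cd3g at chr9:44980382-44980681 and Cd8a at chr6:71373177-71373476. Capitals mark matches, on either strand, to an E-box, an ETS core and a GATA motif, whose letters are given after the sequences.
Cd3e: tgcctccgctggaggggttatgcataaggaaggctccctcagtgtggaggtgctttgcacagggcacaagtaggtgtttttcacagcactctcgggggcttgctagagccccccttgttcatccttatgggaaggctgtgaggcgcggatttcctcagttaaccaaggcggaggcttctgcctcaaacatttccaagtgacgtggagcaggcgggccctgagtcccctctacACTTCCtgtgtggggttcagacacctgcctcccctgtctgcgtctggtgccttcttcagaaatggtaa
Cd3d: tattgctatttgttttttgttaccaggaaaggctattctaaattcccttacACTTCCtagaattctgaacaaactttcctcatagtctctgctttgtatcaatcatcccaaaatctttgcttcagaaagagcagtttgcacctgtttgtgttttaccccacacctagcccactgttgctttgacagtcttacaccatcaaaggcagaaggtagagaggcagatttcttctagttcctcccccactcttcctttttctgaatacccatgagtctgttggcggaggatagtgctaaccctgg
Cd3g: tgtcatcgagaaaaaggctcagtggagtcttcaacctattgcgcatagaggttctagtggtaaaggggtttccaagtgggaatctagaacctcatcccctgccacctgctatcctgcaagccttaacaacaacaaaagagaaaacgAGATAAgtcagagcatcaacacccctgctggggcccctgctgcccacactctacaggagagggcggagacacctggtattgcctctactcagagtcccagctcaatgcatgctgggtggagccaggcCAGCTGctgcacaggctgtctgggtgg
Cd8a: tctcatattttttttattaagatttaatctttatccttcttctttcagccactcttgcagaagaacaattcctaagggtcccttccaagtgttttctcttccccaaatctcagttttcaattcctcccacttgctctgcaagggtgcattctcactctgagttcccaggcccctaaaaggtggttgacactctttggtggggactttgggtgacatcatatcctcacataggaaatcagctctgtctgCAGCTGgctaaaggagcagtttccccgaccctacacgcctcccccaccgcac
The ETS core GGAAGT was found in Cd3e, Cd3d and, at 2 places, in Cd247, and in 23.8% of 32851 promoter windows of the same length. The E-box CAGCTG was found in Cd3g and Cd8a and in 16.3% of all windows. The GATA motif AGATAA was found in Cd3g and in 11.2% of windows, and TGTGGT, a RUNX core, was in none of the 5 members and in 16.8% of windows. Both strands were searched, the motifs do not overlap each other in these windows, and a match is a description of the letters.

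Total counts were 8.76 to 34.3 M per tumour. Protein-coding genes took 82.9 to 89.2% of counts in every control, non-responder and stable tumour and in responder 5. In the other 7 responders they took 23.8 to 74.3%. The part of that difference in the results on responders was not tested. Values from a fit with the share as a covariate stand beside the fold changes of members and signalling genes between responders and the other outcome groups. For the CD8 to CD4 balance by Cd8a there are only values without responders 1, 4 and 7, the 3 of lowest share. Responders 2, 3, 6 and 8, which stayed in, had shares of 67.3 to 74.3%, so those values do not take the difference into account. The library numbers in the labels run group after group, and what they stand for is not stated. Any order of handling that they reflect cannot be told apart from group. Cd2 and Cd5, T cell surface genes that are no members, were called higher in each anti-CTLA-4 group than in controls. Markers of immature thymocytes summed to at most 1.12 counts per M counts in any tumour, and Rag2 was at 0 in all groups. No 2 libraries of a group agreed within sampling noise.

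Levels are given as CPM, counts per M counts of the library as scaled by the TMM method, with the SD over tumours. The TMM factor was 0.339 in responder 1, 0.818 in responder 4 and 0.928 to 1.19 in all other tumours. Scaling thus raised the levels of responders 1 and 4 relative to the others, most in responder 1, whose scaled library was 4.48 M counts. Cd3e, the CD3 chain most used to count T cells, had 0.50, 1.99, 1.33, 0.904 and 2.12 CPM in controls 1 to 5. It ran from 1.33 through a median of 8.34 to 12.1 CPM in non-responders, from 7.66 through 12.8 to 22.2 CPM in stable tumours, and from 11.6 through 16.1 to 25.0 CPM in responders. Every stable tumour and responder lay above every control, and only non-responder 3 lay within the control range. The mean was 17.5 ± 4.30 CPM in responders (SD, n = 8), 13.6 ± 4.88 CPM in stable tumours (SD, n = 6), 7.28 ± 4.15 CPM in non-responders (SD, n = 6) and 1.37 ± 0.694 CPM in controls (SD, n = 5). In bulk tumour RNA, fewer T cells and less RNA per T cell cannot be told apart, here and for every member below.

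Cd3d and Cd3g, the chains that each pair with CD3 epsilon, had a different order from Cd3e. Cd3d had 0.633, 1.11, 0.822, 0.301 and 2.59 CPM in controls 1 to 5, with medians of 6.08 CPM in non-responders (1.07 to 16.7), 13.9 CPM in stable tumours (10.7 to 16.0) and 8.28 CPM in responders (3.49 to 19.4). Cd3g had 1.53, 1.69, 1.60, 1.10 and 4.04 CPM in controls, with medians of 13.8 CPM in non-responders (4.17 to 34.0), 25.4 CPM in stable tumours (22.5 to 31.1) and 14.1 CPM in responders (8.93 to 43.2). For both chains stable tumours were highest on average, and among responders only responder 5 exceeded every stable tumour. Cd247, whose product carries most of the activation motifs of the complex, had 0.900, 0.995, 0.626, 0.603 and 1.5 CPM in controls. Its medians were 5.78 CPM in non-responders (1.72 to 12.7), 11.5 CPM in stable tumours (9.68 to 13.7) and 7.53 CPM in responders (4.24 to 13.8). Every non-responder lay above every control for Cd3g and Cd247, the 2 members for which those groups did not overlap, against 2.67% of all 18031 genes tested. In the deposited RPKM (reads per kilobase and M reads) both overlapped, with a lowest non-responder of 2.89 and a highest control of 2.94 RPKM for Cd3g, and 3.97 and 5.18 RPKM for Cd247.

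The constant genes report the receptor chains themselves, whatever variable segment a clone uses. Trac, the alpha constant gene, had 0.933, 1.40, 1.92, 0.712 and 2.95 CPM in controls 1 to 5. It had medians of 9.80 CPM in non-responders (2.62 to 26.1), 21.1 CPM in stable tumours (17.9 to 24.7) and 9.16 CPM in responders (6.29 to 27.7). The middle responder was thus no higher than the middle non-responder, and 7 of the 8 responders lay below every stable tumour. Trbc1 and Trbc2, the alternative beta constant genes, had control ranges of 0.50 to 2.64 CPM and 1.40 to 4.45 CPM. In stable tumours Trbc1 averaged 15.1 ± 4.19 CPM (SD, n = 6) and in responders 11.8 ± 5.80 CPM (SD, n = 8). Trbc2 averaged 26.6 ± 4.30 CPM in stable tumours (SD, n = 6) and 18.1 ± 9.70 CPM in responders (SD, n = 8).

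Cd4 had the smallest coefficient of variation (SD over mean) of the members among stable tumours, 10.7%, though not the smallest SD. It had 4.27, 5.42, 3.64, 3.31 and 5.69 CPM in controls 1 to 5, 4.86 to 30.1 CPM in non-responders (median 20.6), 31.9 to 43.5 CPM in stable tumours (median 38.2) and 15.0 to 39.7 CPM in responders (median 21.2). The lowest stable tumour lay above the highest non-responder, and 7 of the 8 responders lay below every stable tumour. Cd8a, the alpha chain found in every form of CD8, had 1.07, 2.47, 2.5, 1.01 and 5.43 CPM in controls. It had 4.98 to 48.8 CPM in non-responders (median 21.5), 18.5 to 53.9 CPM in stable tumours (median 28.8) and 19.6 to 59.2 CPM in responders (median 34.5). Cd8a was highest in responders on average, with wide overlap among the 3 outcome groups. Cd8b1, the beta chain of the CD8 heterodimer on conventional cytotoxic T cells, had 0.633, 0.995, 1.21, 0.301 and 2.02 CPM in controls. Its medians were 8.55 CPM in non-responders (1.89 to 18.3), 12.5 CPM in stable tumours (7.70 to 20.4) and 8.92 CPM in responders (4.05 to 22.1), so the beta chain did not share the order of the alpha chain.

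**Figure D1:**
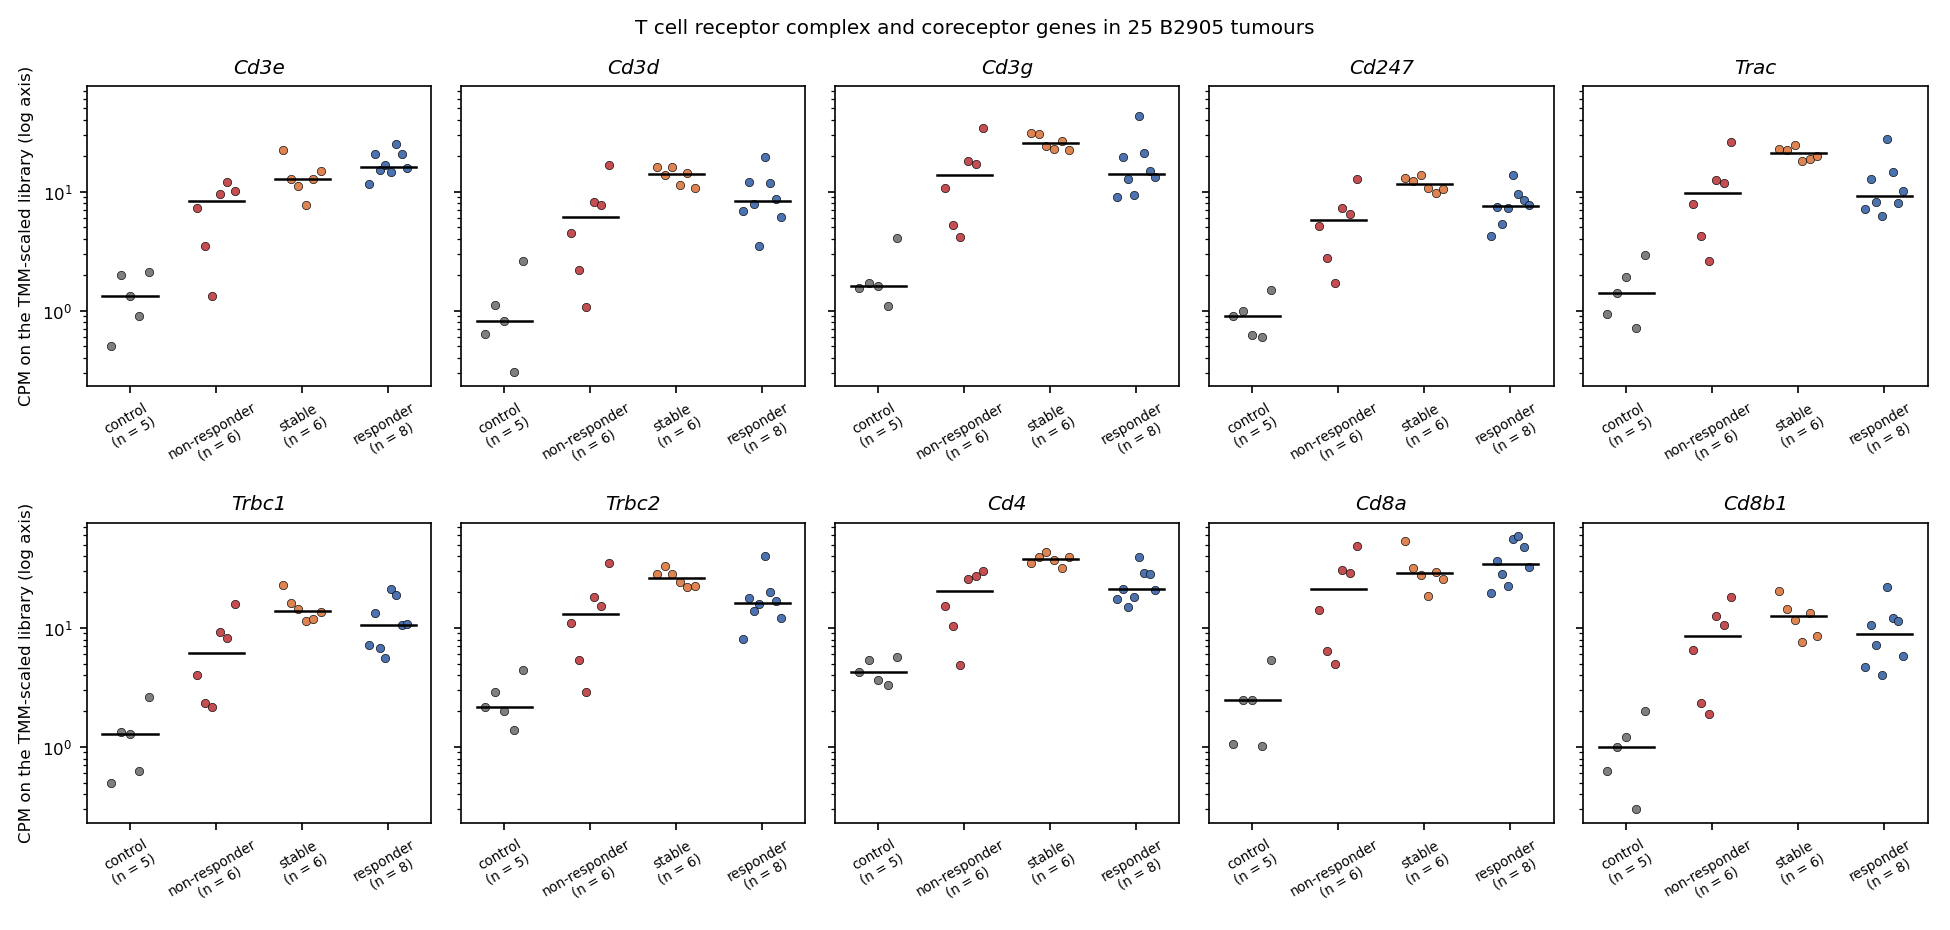
Level of each of the 10 genes in each tumour, as CPM of the TMM-scaled library on a log axis. Points are tumours and lines are group medians. All responders and stable tumours lie above all controls in each panel, and non-responders spread from near the controls to the stable level (Cd3e, 1.33 to 12.1 CPM).

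Against controls, all 10 genes were higher in each outcome group. Genes were tested with edgeR's quasi-likelihood test over all 25 tumours, with Benjamini-Hochberg adjustment over 18031 genes, and are called under an adjusted p of 0.05. In responders 10 of 10 were called higher, where 36.1% of all genes were. In stable tumours 10 of 10 were called higher, where 22.2% of all genes were. In non-responders 10 of 10 were called higher, where 10.6% of all genes were. The median log2 fold change of the members was 3.18 in responders, 3.65 in stable tumours and 2.68 in non-responders, and that of all genes was 0.16, 0.02 and 0.04. These comparisons share their 5 controls. Responders did not overlap controls for any of the 10 genes (14.9% of all genes did so and were higher), and neither did stable tumours (18.4%).

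Cd8a had the largest difference from controls in responders (log2 fold change 3.95, SE 0.55, adjusted p = 2.77e-06) and in non-responders (3.19, SE 0.55, adjusted p = 0.000627). In stable tumours the largest was that of Trac (3.75, SE 0.52, adjusted p = 4.58e-06). Cd4 had the smallest in all 3 comparisons, at 2.42 (SE 0.33, adjusted p = 2.3e-06) in responders, 3.08 (SE 0.35, adjusted p = 9.17e-07) in stable tumours and 2.09 (SE 0.34, adjusted p = 0.00049) in non-responders. Cd3e differed by 3.69 (SE 0.44, adjusted p = 4.67e-07) in responders, 3.32 (SE 0.45, adjusted p = 3.54e-06) in stable tumours and 2.42 (SE 0.43, adjusted p = 0.000734) in non-responders. The other 6 genes had log2 fold changes of 2.84 to 3.28 in responders, 3.38 to 3.74 in stable tumours and 2.48 to 3.10 in non-responders. Control counts were low, down to 11 reads for Cd3d and Cd8b1, which limits the precision of these fold changes. With the 3 outcome groups averaged at equal weight, 10 of 10 genes were again called higher than in controls, where 27.7% of all genes were.

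Between responders and non-responders only Cd3e was called. Its level was 17.5 against 7.28 CPM, 7 of 8 responders lay above every non-responder, and the log2 fold change was 1.27 (SE 0.36, adjusted p = 0.0067), or 2.40-fold. That is 1 of 10 members, where 25.2% of all genes were called higher. The differences in Trbc1 (0.76, SE 0.42, adjusted p = 0.13) and Cd8a (0.76, SE 0.43, adjusted p = 0.147, 95% interval -0.09 to 1.61) did not pass. Without non-responder 6, whose members were the third highest of all tumours, 4 members were called. These were Cd3e, Cd8a (1.15, adjusted p = 0.0355), Trbc1 (1.19, adjusted p = 0.0219) and Cd247 (0.78, adjusted p = 0.0359). Over all genes, the fits that each left out 1 tumour called 7255 to 10052 in either direction, in place of 8823. The remaining 7 members differed by 0.14 for Trac to 0.51 for Cd3d. Those of Trac, Cd3g and Cd8b1 turned negative without responder 5, at -0.17, -0.05 and -0.11, and those of Trac and Cd8b1 also without non-responder 2 or 3. The median over the members was 0.37, and over all genes 0.05. With the share of protein-coding counts added to the fit no member was called, and the differences ran from 0.56 for Cd4 to 1.34 for Cd3e (adjusted p = 0.063), with Trac at 0.59, Cd3g at 0.79 and Cd8b1 at 0.67. Over all genes, calls in either direction also fell in that fit, to 1810 from 8823. Without responders 1, 4 and 7, the 3 of lowest share, Cd3e differed by 1.33 (adjusted p = 0.02).

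Between responders and stable tumours 0 of 10 members were called by edgeR, where 38.2% of all genes were called in either direction. At an unadjusted p under 0.05 there were 2, Trac and Cd4, and DESeq2 called 1, Cd4. The shares of all genes under these 2 rules are not given here. The responder minus stable difference was -0.67 for Cd4 (SE 0.28, adjusted p = 0.0617) and -0.82 for Trac (SE 0.39, adjusted p = 0.102). Both were called without responder 5, which had the highest level of Trac and, among responders, of Cd4 (Cd4 -0.82, adjusted p = 0.0189, and Trac -1.13, adjusted p = 0.0168). Cd4 was also called without non-responder 3 (-0.67, adjusted p = 0.0194), which enters the shared estimate of the spread. Cd3e (0.37) and Cd8a (0.28, 95% interval -0.57 to 1.12) were the only members with positive differences. The median over the members was -0.52, and over all genes 0.01. With the share as a covariate the member differences ran from -0.42 for Cd4 to 0.65 for Cd8a, with Trbc1 (0.06) and Cd8b1 (0.15) positive as well.

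Between stable tumours and non-responders only Cd4 was called. It averaged 37.8 ± 4.04 CPM in stable tumours (SD, n = 6) and 19.0 ± 10.3 CPM in non-responders (SD, n = 6), a difference of 0.99 on the log2 scale (SE 0.30, adjusted p = 0.0298). Cd4 was also the only member whose values did not overlap between these groups, as for 2.07% of all genes, and 7.08% of all genes were called higher. The call was lost without non-responder 1 or 2 or stable tumour 2 or 3, with adjusted p-values of 0.00897 to 0.0798 over the 25 fits that each left out 1 tumour. The other 9 members had differences of 0.49 for Cd8a to 1.10 for Trbc1 that did not pass, and 6 of the 10 members had an unadjusted p under 0.05. Without non-responder 6, 7 members were called. The shares of all genes in that fit and at an unadjusted p under 0.05 are not given here. The median over the members was 0.92, and over all genes -0.02.

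**Figure D2:**
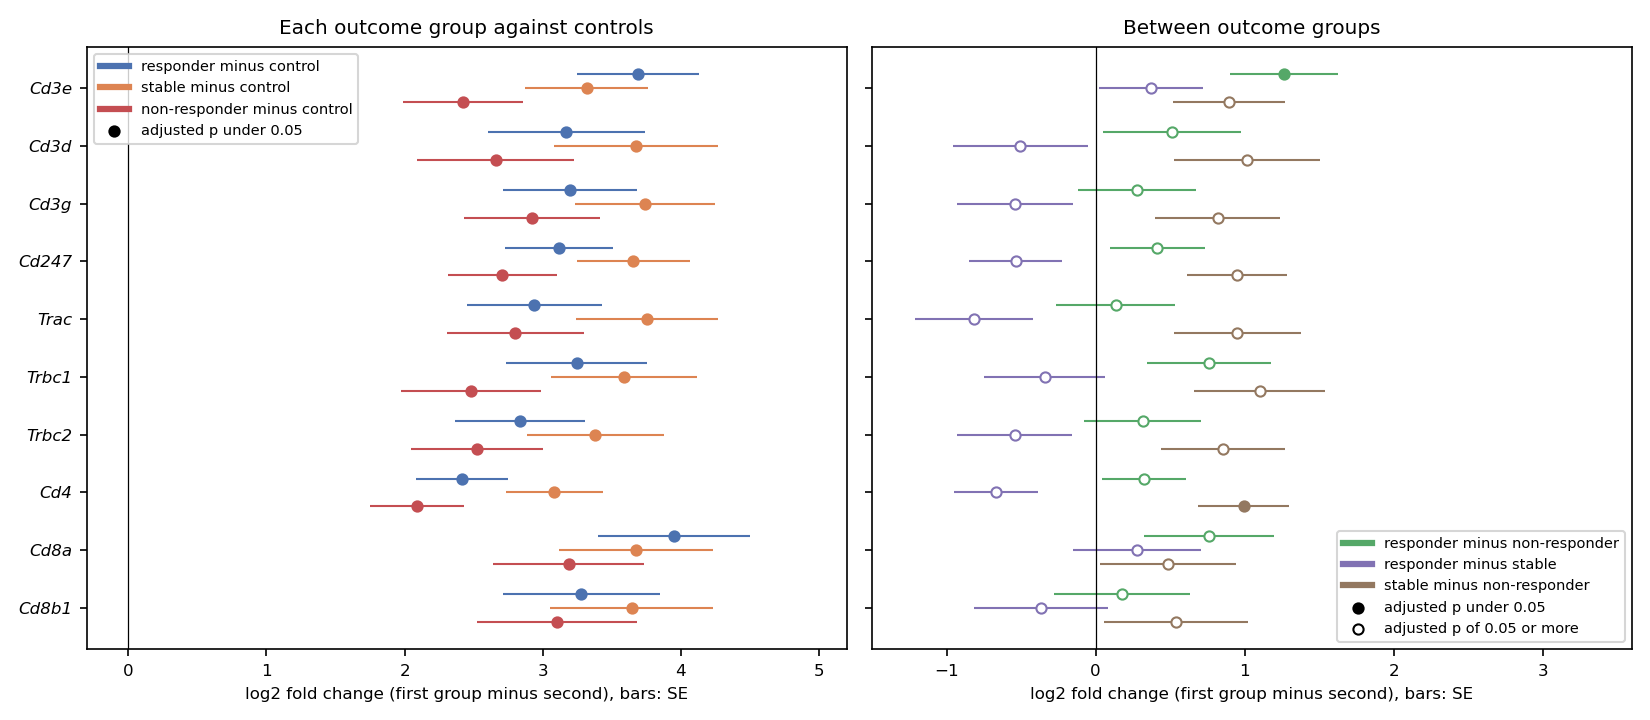
Log2 fold change of each gene with its SE, each outcome group against controls on the left and the outcome groups against each other on the right. Filled points passed an adjusted p of 0.05 in edgeR's test. All points on the left are filled, and on the right only Cd3e for responder minus non-responder (1.27) and Cd4 for stable minus non-responder (0.99) are.

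Levels per length, in CPM per kilobase of annotated exon, allow the genes to be set side by side. Trbc2 was highest in every group, at 26.2 in responders, 38.4 in stable tumours, 21.2 in non-responders and 3.72 in controls. Cd247 was lowest in every group, at 1.49, 2.18, 1.13 and 0.174 in that order of groups, though much of its annotated exon length is shared with Pou2f1. Among the coreceptors, Cd8a was at 10.4, 8.62, 6.15 and 0.687 CPM per kilobase in the same order. Cd4 was at 5.88, 9.38, 4.71 and 1.11, so on average Cd4 lay above Cd8a in controls and stable tumours and below it in non-responders and responders. For 8 of the 10 members the mean level fell from stable tumours through responders and non-responders to controls. For Cd3e and Cd8a responders came first. Along these orders the step from controls to non-responders passed edgeR's test for all 10 genes, and no other step between neighbours did.

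The levels of the members followed each other over tumours. Pearson correlations of log2 CPM between the 45 pairs of members were 0.866 to 0.988 over the 25 tumours, with a median of 0.964, and 0.579 to 0.978 over the 20 anti-CTLA-4 tumours, with a median of 0.909. The points share libraries and scaling, and no test is given. Ranked by the mean log2 CPM of the 10 members, the highest tumours were responder 5, stable tumour 1 and non-responder 6. All 6 stable tumours were among the 10 highest. Non-responder 3 ranked 21 of 25, below control 5, which ranked 20. Non-responders had the widest spread of all groups, with coefficients of variation of 54.2% for Cd4 to 84.4% for Cd3d, against 10.7% for Cd4 to 38.2% for Cd8a in stable tumours. Non-responder 6 had the lowest sum of 5 melanocyte genes of its group, 376 CPM, and non-responder 3 the highest, 13059 CPM. The same sum was 9759 to 16197 CPM in controls and at most 409 CPM in stable tumours and responders, and its part in the member levels was not tested.

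The balance of CD8 to CD4 was higher in responders than in any other group when Cd8a stood for CD8. It was measured within each tumour as log2 of Cd8a counts over Cd4 counts, with 0.5 added to each, which does not depend on library scaling. Controls 1 to 5 had -1.98, -1.13, -0.54, -1.70 and -0.07. Non-responders ran from -0.69 through a median of 0.06 to 0.70, stable tumours from -1.0 through -0.45 to 0.62, and responders from 0.17 through 0.70 to 1.04. Every responder had more Cd8a than Cd4 counts, as did 4 of 6 non-responders, 1 of 6 stable tumours and no control. The mean was 0.64 ± 0.29 in responders (SD, n = 8), -0.34 ± 0.56 in stable tumours (SD, n = 6), 0.04 ± 0.46 in non-responders (SD, n = 6) and -1.08 ± 0.79 in controls (SD, n = 5).

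The 6 pairs of groups were compared with two-sided exact permutation tests, adjusted over the 6. Responders exceeded stable tumours by 0.98 (adjusted exact p = 0.00599) with 5 of 8 above every stable tumour. They exceeded non-responders by 0.59 (adjusted exact p = 0.0213) with 4 of 8 above every non-responder. They exceeded controls by 1.72 (adjusted exact p = 0.00466), and all 8 lay above every control. Non-responders exceeded controls by 1.13 (adjusted exact p = 0.0357), but the call was lost in 8 of 11 fits that left out 1 tumour, namely control 1, 2 or 4 or non-responder 1, 3, 4, 5 or 6. Stable tumours differed from controls by 0.74 (adjusted exact p = 0.132), which passed without control 5 (1.00), and from non-responders by -0.38 (adjusted exact p = 0.225). Per kilobase of exon, the median ratio of Cd8a to Cd4 was 1.80 in responders, 0.813 in stable tumours, 1.15 in non-responders and 0.505 in controls. In the deposited RPKM values it was 1.71, 0.812, 1.19 and 0.499 in that order. Without responders 1, 4 and 7 the responder differences were 1.11 from stable tumours, 0.73 from non-responders and 1.85 from controls (adjusted exact p = 0.0216 each). Responders 2, 3, 6 and 8, which stayed in, also had protein-coding shares below every tumour of the other groups.

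With Cd8b1 in place of Cd8a the higher balance in responders was not found. Log2 of Cd8b1 over Cd4 was -2.72, -2.42, -1.57, -3.40 and -1.48 in controls 1 to 5, with medians of -1.27 in responders (-2.15 to -0.84), -1.68 in stable tumours (-2.26 to -0.78) and -1.29 in non-responders (-2.15 to -0.71). The responder median was thus level with that of non-responders. The responder difference was -0.11 from non-responders (adjusted exact permutation p = 0.689), 0.23 from stable tumours (adjusted exact p = 0.499) and 0.91 from controls (adjusted exact p = 0.0974). With Cd8a and Cd8b1 counts summed, responders exceeded stable tumours by 0.80 (adjusted exact p = 0.017) and controls by 1.53 (adjusted exact p = 0.00466), and the difference from non-responders was 0.43 (adjusted exact p = 0.0769). Non-responders exceeded controls by 1.09 on this measure (adjusted exact p = 0.0433).

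**Figure D3:**
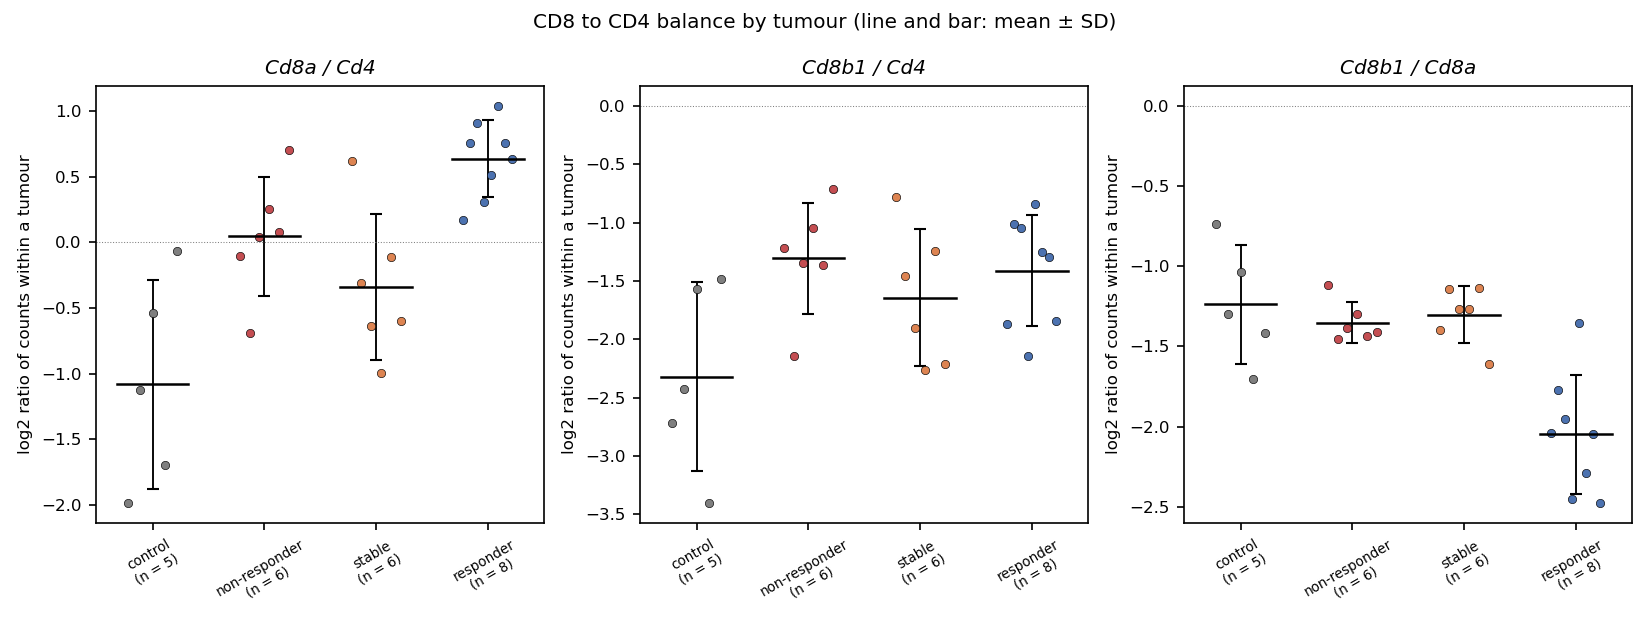
Log2 ratios of counts within each tumour for Cd8a over Cd4, Cd8b1 over Cd4 and Cd8b1 over Cd8a. Points are tumours, with the mean and SD of each group. All 8 responders lie above 0 for Cd8a over Cd4 (0.17 to 1.04), and 7 of 8 lie below every other tumour for Cd8b1 over Cd8a.

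The beta to alpha balance of CD8 itself separated most responders from the rest. Log2 of Cd8b1 over Cd8a was -0.74, -1.30, -1.03, -1.71 and -1.42 in controls 1 to 5, with medians of -2.05 in responders (-2.48 to -1.35), -1.27 in stable tumours (-1.61 to -1.14) and -1.40 in non-responders (-1.46 to -1.12). Of the 8 responders, 7 lay below every tumour of the other groups, and responder 5, at -1.35, lay among them. This ratio and 4 others were compared over the 6 pairs of groups, 30 exact permutation tests adjusted together. Responders were lower, with differences of -0.70 from non-responders (adjusted exact p = 0.0167), -0.74 from stable tumours (adjusted exact p = 0.0167) and -0.81 from controls (adjusted exact p = 0.02). The other 3 pairs differed by at most 0.11 in size.

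The ratios of Cd4 and Cd247 to Cd3e were also lower in responders than in the other outcome groups. Both are divided by Cd3e, the only member called between responders and non-responders, so they do not stand apart from that result. The levels of Cd4 and Cd247 themselves differed by 0.32 and 0.41 from non-responders and by -0.67 and -0.54 from stable tumours, and none of these passed. Log2 of Cd4 over Cd3e had medians of 0.31 in responders, 1.53 in stable tumours, 1.51 in non-responders and 1.44 in controls. Responders were lower, with differences of -1.04 from non-responders, -1.14 from stable tumours and -1.43 from controls (adjusted exact permutation p = 0.0167 each), and 7 of 8 lay below every tumour of the other group each time. Log2 of Cd247 over Cd3e had medians of -1.34 in responders, -0.23 in stable tumours, -0.36 in non-responders and -0.57 in controls. Responders were lower again, by differences of -0.94 from non-responders (adjusted exact p = 0.0225) and -1.01 from stable tumours (adjusted exact p = 0.0167). The difference from controls, -0.71, did not pass (adjusted exact p = 0.145) but did without responder 5 (-0.87, adjusted exact p = 0.00842). For Cd8a over Cd3e no pair passed (adjusted exact p = 0.182 to 0.607), and for Trbc1 over Trbc2 none did (0.274 to 0.757). Stable tumours exceeded controls in Cd8a over Cd3e by 0.60 (adjusted exact p = 0.0476) without control 5. The pair of CD3 chains Cd3e and Cd3g was added after the fold changes were seen and has no test: log2 of Cd3e over Cd3g was 0.08 to 0.82 in 7 responders and -1.56 in responder 5, against -1.75 to -0.48 in non-responders and -1.56 to -0.48 in stable tumours. Controls, at -1.58 to 0.23, overlapped the 7 responders, since control 2 lay above responder 2.

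The responders with shifted ratios were those with a low protein-coding share. Responder 5, with 87.0% of counts in protein-coding genes, had the values of the other groups for Cd8b1 over Cd8a, Cd4 over Cd3e, Cd247 over Cd3e and Cd3e over Cd3g. The other 7 responders had shares of 23.8 to 74.3%, below every tumour of the other groups. With 1 responder in the upper range no comparison within that range can be made, so share and outcome cannot be told apart for these ratios. The CD8 to CD4 balance by Cd8a was 0.51 in responder 5, inside the range of responders (0.17 to 1.04), of non-responders (-0.69 to 0.70) and of stable tumours (-1.0 to 0.62). Responders 2, 3, 6 and 7, the 4 above every non-responder, all had low shares. Share and outcome cannot be told apart for this balance either.

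**Figure D4:**
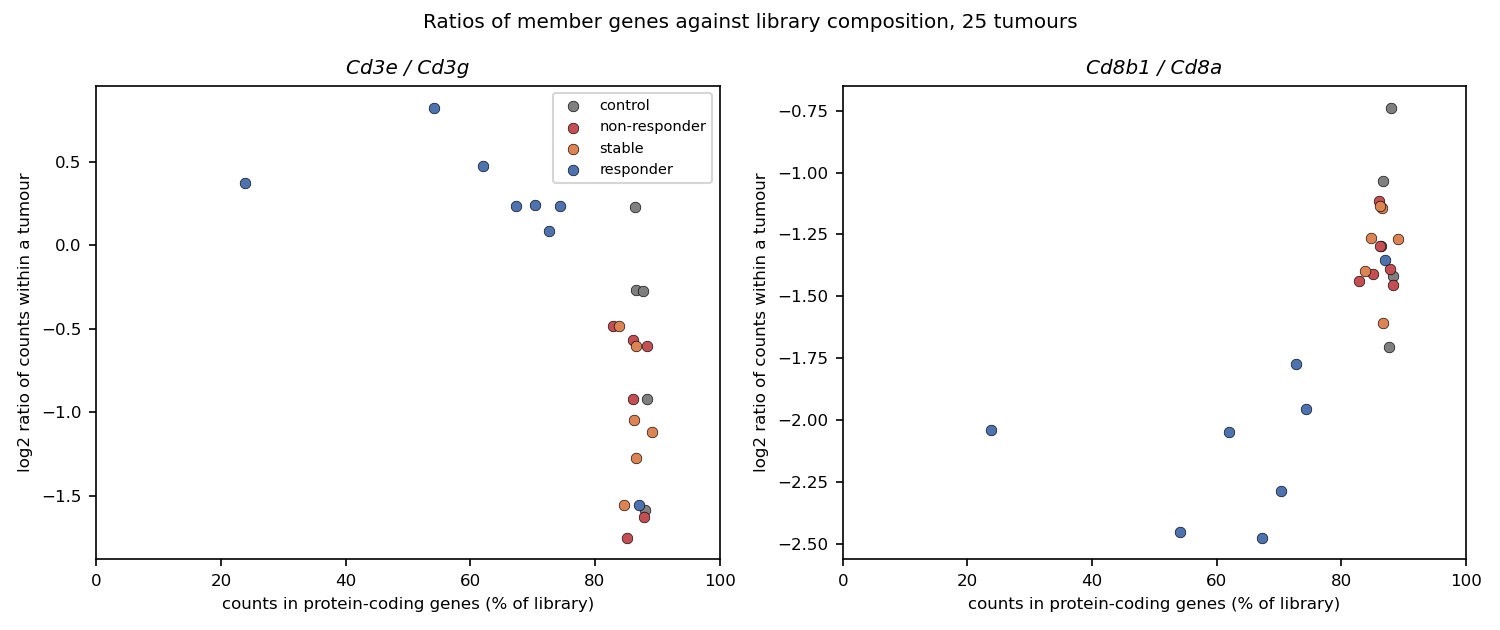
Log2 ratios within each tumour, Cd3e over Cd3g on the left and Cd8b1 over Cd8a on the right, against the percentage of counts in protein-coding genes. The 7 responders with shares of 23.8 to 74.3% lie apart from all other tumours in Cd8b1 over Cd8a, and from all but control 2 (0.23) in Cd3e over Cd3g. Responder 5 (87.0%) lies among the other groups.

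Cd247 read differently in the deposited tables. In RPKM it was 5.25 to 9.18 in responders, 6.28 to 8.86 in stable tumours, 3.97 to 8.69 in non-responders and 4.23 to 5.18 in controls (median 4.34). The stable and control medians were 7.57 and 4.34 RPKM, whereas in CPM from the counts they were 11.5 and 0.900. Pou2f1, a widely expressed transcription factor gene on the opposite strand that shares 3007 exonic bases with Cd247, was at 36.7 to 66.7 CPM and 2.78 to 5.57 RPKM over all tumours. Its part in the RPKM of Cd247 was not tested. All 7 members in the RPKM table were called against controls by limma on log2(RPKM + 1) in each comparison.

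**Figure D5:**
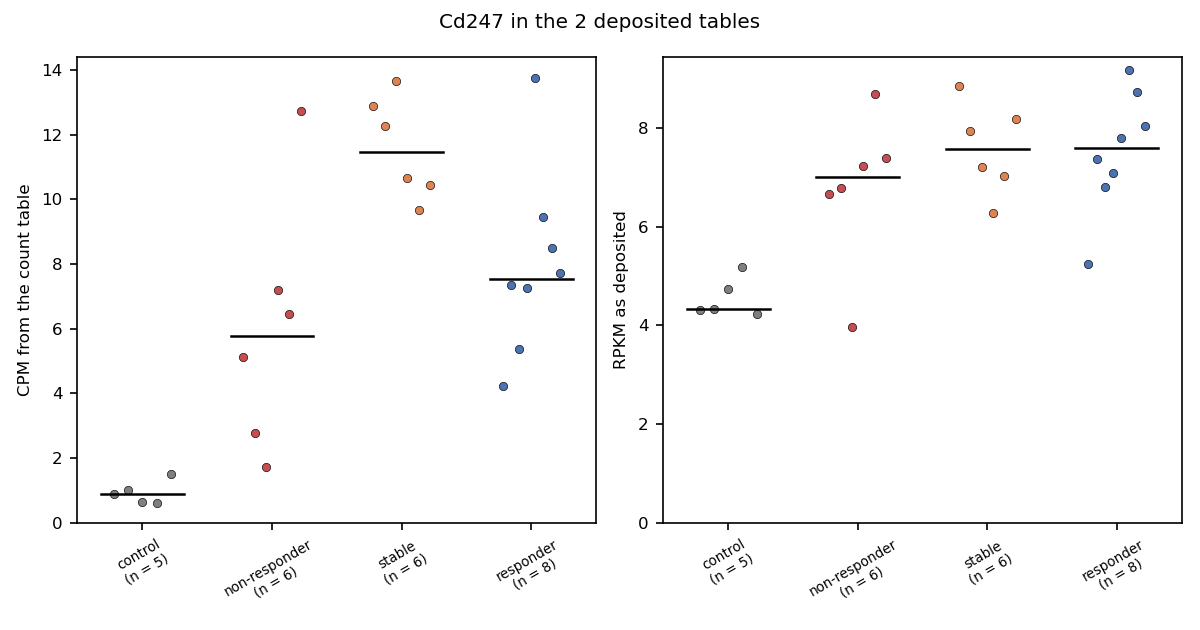
Cd247 in each tumour as CPM from the count table (left) and as deposited RPKM (right), with group medians as lines. Controls lie at 0.603 to 1.5 CPM and at 4.23 to 5.18 RPKM, so the gap to the other groups is much smaller in RPKM.

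Other genes of T cell receptor signalling were taken from a list of 40, of which 36 could be tested. Ptcra, Rag1 and Rag2, which act in the thymus, and the gamma constant gene Tcrg-C3 were too low to test. Against controls 32 of 36 were called higher in responders, 33 in stable tumours and 29 in non-responders. The background shares called higher were the same 36.1, 22.2 and 10.6% as above. Among the called genes the highest in responders were Themis, an adaptor of T cell development (log2 fold change 4.33, adjusted p = 3.17e-07), the gamma constant gene Tcrg-C4 (4.23, adjusted p = 1.91e-05) and the kinase Txk (4.19, adjusted p = 1.07e-07). In stable tumours they were Tcrg-C4 (4.39), Trat1, an adaptor bound to the receptor (4.05), and Themis (3.99). In non-responders they were Tcrg-C4 (3.31), Tcrg-C2 (3.25) and Themis (3.13). Nfatc2, a transcription factor activated by calcium, was the 1 gene called lower, at -1.14 in responders (adjusted p = 0.00155) and -1.37 in stable tumours (adjusted p = 0.00108).

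Between responders and non-responders more of this signalling list was called than of the receptor genes. In responders 23 of 36 signalling genes were called higher and 0 lower, and the median log2 fold change was 0.86. Of all 18031 genes, 25.2% were called higher and 4285 lower. By role, 6 of 8 kinases and phosphatases, 8 of 11 adaptors, 6 of 9 enzymes and later steps, 2 of 4 surface partners and 1 of 4 gamma delta constant genes were higher. Txk had the highest difference, 1.98 (SE 0.35, adjusted p = 0.000191), from 2.96 to 11.7 CPM. For Trat1 it was 1.31 (SE 0.41, adjusted p = 0.012). With the share of protein-coding counts in the model 8 were called higher, Txk (1.76, adjusted p = 0.0178) and Trat1 (1.60, adjusted p = 0.0415) among them, and without responders 1, 4 and 7 there were 18. Over all genes, calls in either direction were 1810 and 5768 in these fits, in place of 8823. Between stable tumours and non-responders 16 were higher and 1 lower, where 7.08% of all genes were called higher and 1417 of 18031 lower. The highest were Txk (1.54, adjusted p = 0.00705), Trat1 (1.47, adjusted p = 0.0245) and the delta constant gene Trdc (1.25, adjusted p = 0.0382), with Nfatc2 lower (-0.90, adjusted p = 0.0467). Between responders and stable tumours 38.2% of all genes were called in either direction. Of the list 1 was higher, the phospholipase gene Plcg1 (0.28, adjusted p = 0.0303), and 3 were lower, with the adaptors Bcl10 (-0.39, adjusted p = 0.0219) and Grb2 (-0.37, adjusted p = 0.00605) at the bottom. All 4 of these calls were lost with the share in the model, where Plcg1 differed by 0.06, Bcl10 by -0.17 and Grb2 by -0.20 (adjusted p = 0.85, 0.617 and 0.42), and also without responders 1, 4 and 7. With the share in the model 0 of all genes were called in this comparison, in place of 6891, so the loss held for every gene called. Without responders 1, 4 and 7 there were 1400. Whether the list and the 10 members differ in their response was not tested.

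Among protein-coding genes outside the members, those whose log2 CPM followed Cd3e most closely over the 25 tumours were Fam78a (Pearson r = 0.98), Lax1 (0.98), Il2ra (0.98), Zfp831 (0.98), Sh2d2a (0.98), Itgal (0.98), Sorl1 (0.98) and Ikzf3 (0.98). Over the 20 anti-CTLA-4 tumours the same correlations were 0.93 to 0.96. Il2ra encodes the alpha chain of the interleukin-2 receptor, and Itgal a chain of the leukocyte integrin LFA-1. The members themselves followed Cd3e less closely, from 0.87 for Trac to 0.96 for Cd8a over 25 tumours, and from 0.58 for Trac to 0.89 for Cd8a over 20. The points share libraries, depth and scaling, and these values are descriptions.

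Some member genes are also known in other cells: Cd247 in NK cells, Cd8a in a class of dendritic cell and Cd4 in plasmacytoid dendritic cells. The counts of markers below are edgeR calls, and 36.1% of all genes were called higher than controls in responders, 22.2% in stable tumours and 10.6% in non-responders. Of 5 NK cell markers, 5 were higher than controls in each outcome group, and their summed level was 17.4 to 43.1 CPM in responders, 27.5 to 45.3 CPM in stable tumours, 4.17 to 45.3 CPM in non-responders and 2.33 to 6.31 CPM in controls. Of 4 markers of type 1 dendritic cells, 3 were higher than controls in each outcome group and 1, Cadm1, was lower in responders and stable tumours, and the list summed to 135 to 242 CPM in responders, 211 to 324 CPM in stable tumours, 242 to 373 CPM in non-responders and 239 to 277 CPM in controls. In responders Cadm1 was lower (98.6 CPM) than in non-responders (220 CPM) and Clec9a higher (10.2 against 3.87 CPM), while Wdfy4 (96.4 against 80.1 CPM) and Xcr1 (2.84 against 3.64 CPM) did not pass. Against stable tumours Xcr1 was lower in responders (2.84 against 5.92 CPM, adjusted p = 0.0475). Of 3 plasmacytoid markers, 2 were higher in responders, 3 in stable tumours and 1 in non-responders than in controls, with sums of 63.2 to 147 CPM in responders, 110 to 208 CPM in stable tumours, 77.2 to 243 CPM in non-responders and 80.6 to 107 CPM in controls. Of 5 macrophage markers, 5 were higher in responders, 4 in stable tumours and 3 in non-responders than in controls, with sums of 221 to 339, 443 to 1135, 825 to 1400 and 282 to 895 CPM in controls, responders, stable tumours and non-responders. Of 5 B cell markers, 5 were higher in responders and in stable tumours and 2 in non-responders than in controls. They summed to 1.14 to 3.31 CPM in controls, 1.12 to 29.1 CPM in responders, 7.44 to 14.6 CPM in stable tumours and 2.96 to 14.1 CPM in non-responders. Responders and non-responders thus overlapped controls in this sum. Between outcome groups, 1 plasmacytoid marker was called lower in responders than in non-responders and 1 lower than in stable tumours, with 0 higher. Over all genes 4285 and 3202 of 18031 were called lower. Of the macrophage markers, 1 was higher and 2 lower in responders than in stable tumours, and 1 was higher than in non-responders. Over all genes 3689 and 4538 were called higher. None of the markers in these 5 lists was at 0 in any group, and the part of these cells in the member levels was not tested.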

How the data were processed

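RNA from 25 tumours was analysed from deposited values. The authors deposited a table of expected counts (estimated counts per gene, not normalized) for 55450 genes, of which 5.64% of values were not whole, and a table of RPKM for 19522 symbols, with no gene lengths or denominator given in the sources used here. Per the submitters' processing notes, bcl2fastq 2.17, Trimmomatic, STAR 2.5.1, RSEM 1.2.22 and build mm10 were used. All gene identifiers were in GENCODE release 21 for GRCm38, the source of coordinates. The RPKM table held 7 of the 10 members, not Trac, Trbc1 and Trbc2. The labels name a total RNA kit and polyA RNA, a difference not resolved.

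Expected counts were rounded, since the planned test takes whole counts and the plan had taken the table to hold them. edgeR 4.0.16 (R 4.3.3) was run with filterByExpr, leaving 18031 genes, TMM scaling, 4 group means over all 25 tumours, robust quasi-likelihood F tests and Benjamini-Hochberg adjustment. Standard errors came from the fold change and F statistic, and 95% intervals are 1.96 SE to each side. Depth was 8.76 to 34.3 M counts, and members had as few as 11 counts in a tumour. Ratios within a tumour added 0.5 to each count and were tested by exact permutation of the absolute difference of means. Correlations used log2 CPM with a prior count of 2. The fit was tested on simulated counts of 18031 genes, 200 of them changed: in responder minus non-responder it recovered 94% of the 4-fold changes and 60% of the 2-fold changes, with 4.35% false calls. The simulation held no difference in library composition, and in the real comparison 8823 genes were called. These rates therefore need not hold for the real comparison.

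Tumours were grouped by title and numbered by record order, and no number pairs tumours. All 10 members are named in each comparison. From the signalling list the 3 highest and up to 2 lowest called genes are named, and for likeness to Cd3e the 8 most correlated genes. A result for 1 gene that this rule names is not reported here. The members and lists were chosen with earlier results of these data known. Alternatives were RLE size factors, other filters, protein-coding and receptor constant genes only, the protein-coding share as a covariate, a fit of only the groups compared, limma 3.58.1 on log2 RPKM, DESeq2 1.42.0, leaving out each tumour, and, chosen after seeing the data, leaving out the 3 responders of lowest protein-coding share. For ratios they were Cd8b1 or the sum for Cd8a, 2 added to each count, RPKM and medians. Protein sequences were not used here.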

Additional observations from a re-analysis of the deposited data

Results flagged for a closer look

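Within groups, the highest or lowest tumour was compared with the rest by its gap over the group's range, for the 10 levels and 6 ratios in 4 groups. Of 64 groups of values, 4 had a tumour beyond the 95% limit, and chance gives about 1 in 20. Responder 5 stood apart in 2 of them: log2 of Cd4 over Cd3e was 1.44 there and at most 0.58 in the other responders, and log2 of Cd247 over Cd3e was -0.0912 there and at most -1.02 in the others. Its protein-coding share, 87.0%, was also apart from those of the other responders, and the part of that in the ratios was not tested. Control 1 had the highest log2 of Cd4 over Cd3e, 3.05, against 1.41 to 1.86 in the other controls. Stable tumour 6 had the lowest log2 of Cd8a over Cd3e of its group, 0.82, against 1.2 to 1.34.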

How the results depend on the processing

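No paired analysis was possible because the labels give no replicate numbers. Against controls, all 10 members were called under every alternative that measures them all, and 7 of 7 in limma on RPKM. In responder minus non-responder, with 1 member called, 0 were called with the protein-coding share in the model and 2 in limma on log2(RPKM + 1) and on log2(RPKM + 0.1) (Cd3e and Cd8a), and 1 to 4 when each tumour was left out. In responder minus stable, with 0 called, 2 were called when the fit held these groups alone and 1 in DESeq2, and 0 to 2 when each tumour was left out. In stable minus non-responder, with 1 called, 0 were called with no low-count filter and with only the groups compared, 2 with the stricter filter, 3 and 2 in limma with 1 and 0.1 added, 2 in DESeq2, and 0 to 7 when each tumour was left out. The CD8 to CD4 balance with Cd8b1 for Cd8a was -0.11 for responders minus non-responders, 0.23 against stable tumours, 0.91 against controls and, for non-responders minus controls, 1.01 (adjusted exact p = 0.0974), and with the sum it was 0.43 for responders minus non-responders. Leaving out each tumour gave 0.52 to 1.00 for stable tumours minus controls and 0.90 to 1.38 for non-responders minus controls. The cause of these changes was not tested.

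Over the 70 log2 fold changes of members, 2368 values under alternatives were computed: 2338 kept their side of the threshold and their direction where called, 7 lost the call, 23 gained it and 9 changed sign without a call. The number of genes called over all tested moved more than 1.5 times in some settings. With the share as a covariate it was 1810 in place of 8823 for responder minus non-responder and 0 in place of 6891 for responder minus stable, and without the 3 responders of lowest share 5768 and 1400. For non-responder minus control it was 1559 in place of 2500 in a fit of only these groups, 4237 without non-responder 3, and 1593, 1570 and 1634 without control 1, control 4 and non-responder 4. For stable minus non-responder it was 1470, 1517 and 1523 in place of 2693 without non-responder 2, non-responder 3 and stable tumour 3. Members had their lowest counts in controls, down to 11, although controls had the deepest libraries on average (mean 25.5 M counts). Responders had the shallowest (mean 14.9 M counts), and responder 1 had 19 counts of Cd247.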
